A study of Mus musculus with 28 samples.

Results

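Normal lung (NL, 3 arrays) was set against normal mammary gland (NMG, 3 arrays), 6 of the 28 arrays of a study of spontaneous metastasis from mammary carcinoma, in order to describe which genes mark each healthy organ in the same mouse strain. The 6 arrays were chosen by their labels alone. The other 22 were 11 primary tumors, 9 lung metastases and 2 cell line cultures, and they entered the study's joint normalization of all arrays, the choice of a gene's probe set (tumors and metastases) and an alternative fit. NL was whole lung parenchyma and NMG whole mammary gland of healthy Balb/c athymic nude mice without tumor cells. The mice were female, and normal mammary gland and lung of this kind came from 3 mice 6 to 8 weeks of age. A lung and a gland may thus share a mouse, and the main fit did not pair them. Nude mice lack a thymus and so have few mature T lymphocytes, which limits both organs as models of a normal immune compartment. The labels call the arrays biological replicates without naming the animal behind each. The p-values therefore measure the spread between these arrays, which may be partly technical, and 3 arrays a group limit their precision. All 3 NL arrays carry one date in the labels and all 3 NMG arrays another, so date and organ cannot be told apart in any difference below.

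The lung exchanges gas across thin alveolar type 1 cells, which lie against a dense capillary bed. Alveolar type 2 cells make surfactant, a film of lipid and protein that keeps alveoli open, and the airways are lined by secretory club cells and ciliated cells. The mammary gland of a virgin mouse is a sparse tree of ducts inside a fat pad. Its ducts have inner luminal cells, some of which carry estrogen and progesterone receptors, and outer basal cells, and the fat pad of the inguinal gland holds a lymph node. Which of the glands was taken is not given in the sources used here. Whole tissue RNA mixes all of these cells, so fewer cells of a type and less RNA per cell cannot be told apart here.

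The values are log2 signals of 1 probe set per gene for 18194 genes. A gene was called when the adjusted p of limma lay under 0.05 and the groups differed over 2-fold, a log2 difference beyond 1. By this rule 2932 genes (16.1%) were called, 1600 higher in NL (8.79%) and 1332 lower in NL (7.32%). Counts of called list members below are to be read against these shares. The median difference over all genes was -0.01. Over 16-fold apart were 116 genes higher and 51 lower in NL, and over 64-fold 17 higher and 4 lower. The 3 NL values all lay above the 3 NMG values for 23.6% of genes and all below for 24%. Array values correlated with r from 0.986 to 0.992 across genes within NL, from 0.984 to 0.993 within NMG and from 0.896 to 0.911 between them. Genes of the Y chromosome, which female mice lack, reached at most 3.37, and values near that level are treated below as low signal.

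**Figure D1:**
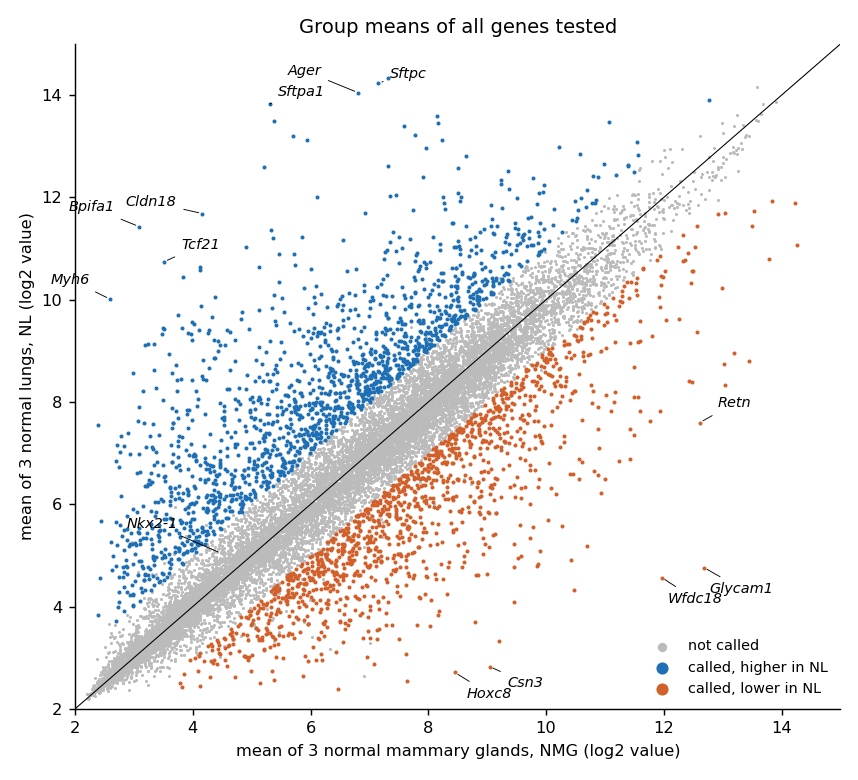
Mean log2 value of each of the 18194 genes in the 3 NL arrays (vertical axis) against the 3 NMG arrays (horizontal axis), with the line of equality. Blue points are the 1600 genes called higher in NL, orange points the 1332 called lower in NL and grey points the rest. Sftpa1, Bpifa1 and Cldn18 lie far above the line and Glycam1, Wfdc18 and Csn3 far below it, while Nkx2-1 lies close to it.

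Single arrays stood apart in small groups of genes, and these touch several results. NMG 1 was far above the other glands in several lung transcripts. Sftpc, the surfactant protein C of type 2 cells, had 14.23, 14.19 and 14.29 in NL and 10.55, 5.93 and 4.98 in NMG. Scgb1a1, the main secretory protein of club cells, had 14.34, 14.28 and 14.36 in NL and 11.51, 7.15 and 3.29 in NMG. The NL values of both genes were nearly equal and above every gland, while the glands themselves lay far apart. Of 16 type 2 members 12 were highest in NMG 1 among the glands, against 32.9% of all genes. So were 13 of 19 genes of simple epithelium, which both organs share, so this count is not particular to lung genes. NMG 1 exceeded the mean of the other glands by a median of 0.29 in the type 2 list and 0.56 in simple epithelium. The summed linear level of the type 2 list ran from 80100 to 82300 in NL and from 3480 to 5560 in NMG. What the excess in NMG 1 contributes to the differences was not tested beyond leaving that array out.

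Among the lungs, NL 3 carried skeletal muscle transcripts. Myh1, a fast myosin heavy chain, had 3.16, 2.72 and 9.90 in NL and 2.53, 3.39 and 3.01 in NMG. Acta1, skeletal actin, had 6.79, 6.01 and 10.71 in NL and 5.24, 6.44 and 5.45 in NMG. In both genes NL 3 was the only array that stood high. The summed level of the 15 skeletal muscle genes ran from 441 to 4980 in NL and from 325 to 537 in NMG. Of these genes 1 was called, higher in NL, against 8.79% of all genes. It was the creatine kinase Ckm (3.13, adjusted p = 0.00129, limma), with 7.42, 6.86 and 8.69 in NL and 4.56, 4.97 and 4.04 in NMG. Unlike Myh1 and Acta1, Ckm lay above every gland in all 3 lungs, and 1 of its 2 probe sets was higher in NL. Heart muscle genes described below, such as Myh6 and Myl7, also lay above every gland in all 3 lungs. Which muscle the Ckm signal came from was not tested. NL 3 was also alone in 2 genes of keratinizing epithelium, Krtdap (3.71, 3.67 and 7.16 in NL, 3.35, 3.58 and 3.61 in NMG) and Lor (4.78, 4.74 and 7.66 in NL, 4.69, 4.87 and 5.06 in NMG). NL 1 and NMG 3 were highest in their groups in Ucp1, the uncoupling protein of brown fat, with 9.76, 4.48 and 7.08 in NL and 6.86, 6.06 and 10.76 in NMG. No array of either group reached above 3.37 in a Y-linked gene, and Xist, the RNA of the inactive X chromosome, lay from 12.61 to 12.99. The part of these array-specific transcripts in the results below was not tested except where values without an array are given.

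**Figure D2:**
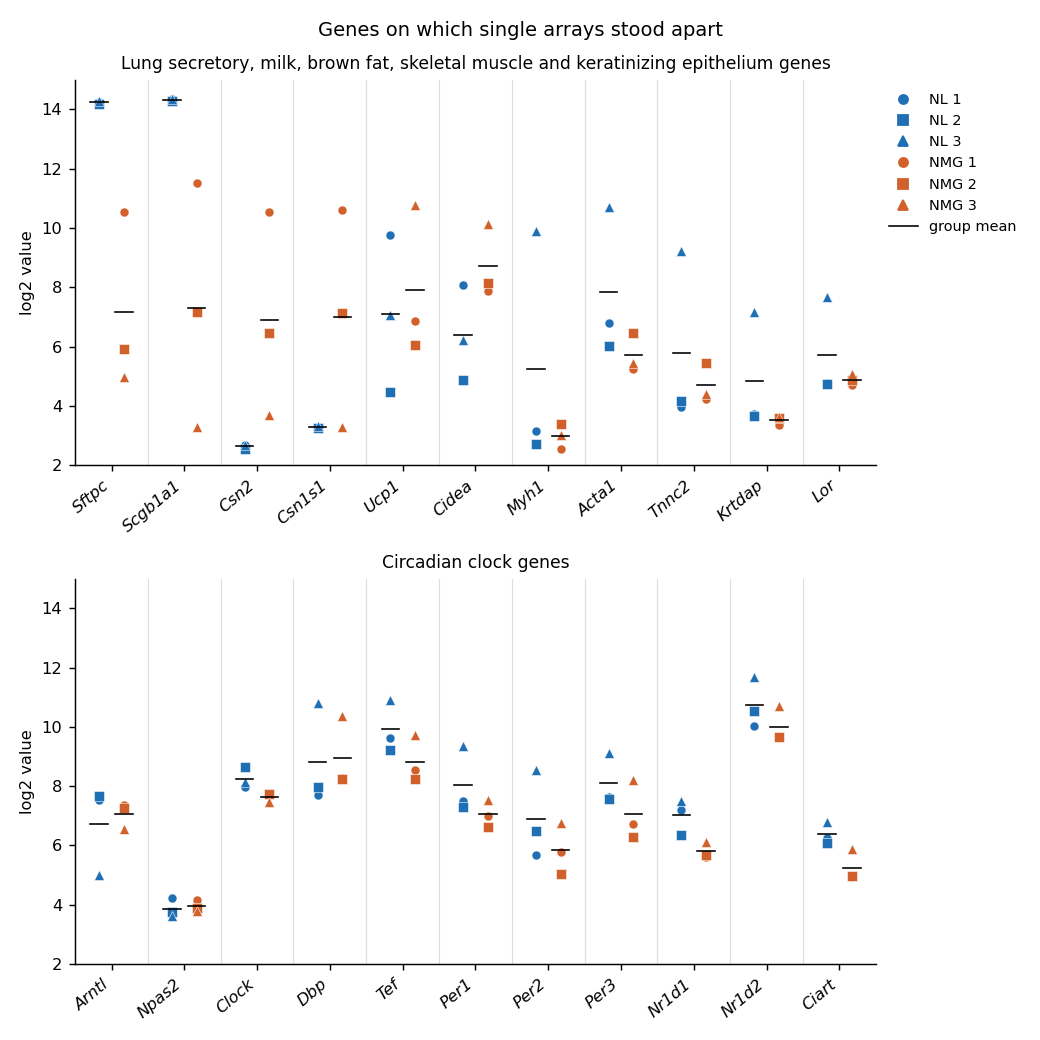
Log2 values of genes on which single arrays stood apart, for the 3 NL arrays (blue) left of the 3 NMG arrays (orange), with circles, squares and triangles for replicates 1, 2 and 3 and a bar for the group mean. NMG 1 stands high in Sftpc, Scgb1a1 and the caseins Csn2 and Csn1s1, NL 3 in Myh1, Acta1, Tnnc2, Krtdap and Lor, and replicate 3 of both organs in the clock genes Dbp, Per2 and Per3.

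Alveolar type 2 genes were far higher in NL. Of 16 members tested, 15 were called higher and 0 lower, with a median difference of 4.86. Sftpa1, a surfactant collectin, had 13.81, 13.80 and 13.88 in NL and 7.30, 4.35 and 4.26 in NMG. It differed by 8.52 ± 0.74 (SE, adjusted p = 8.99e-05, limma), 368-fold, the largest positive difference of all genes tested. Sftpd, a collectin of host defense, differed by 7.49, Slc34a2, the phosphate transporter of type 2 cells, by 7.19 and Sftpc by 7.09 ± 1.26 (adjusted p = 0.00377). Without NMG 1 the difference of Sftpc was 8.79 (adjusted p = 8.6e-06) and that of Sftpa1 9.52. Sftpb, the surfactant protein needed to form the film, had 12.14, 12.07 and 11.82 in NL and 6.71, 5.79 and 5.81 in NMG, a difference of 5.91 ± 0.25 (adjusted p = 3.07e-06). Smaller differences belonged to Abca3, the lipid pump of lamellar bodies, at 2.45 and Lpcat1, an enzyme of surfactant lipid synthesis, at 2.11. Ctsh, a protease of many cell types, was not called, at 10.88, 10.77 and 10.65 in NL and 10.45, 10.40 and 10.40 in NMG.

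All 16 alveolar type 1 members were called higher in NL, with a median of 4.80. Cldn18, the tight junction claudin of the alveolus, had 11.73, 11.63 and 11.69 in NL and 4.77, 3.93 and 3.77 in NMG, a difference of 7.52 ± 0.25 (adjusted p = 1.51e-06, limma). Ager, the receptor RAGE on the basal face of type 1 cells, had 14.12, 13.99 and 14.04 in NL and 8.09, 6.26 and 6.07 in NMG, a difference of 7.24, which was 7.88 without NMG 1. Hopx, a homeodomain protein of type 1 cells, had 13.12, 13.28 and 13.26 in NL and 8.00, 7.62 and 7.70 in NMG. In all 3 genes the lungs lay close together and far above every gland. Col4a4 and Col4a3, basement membrane collagen chains of the alveolus and the kidney glomerulus, differed by 6.52 and 5.50. Aqp5, a water channel shared with glandular epithelia, differed least, with 10.47, 10.02 and 10.32 in NL and 7.58, 8.36 and 9.39 in NMG.

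Airway genes followed. Of 17 club and airway secretory members 14 were called higher in NL and 0 lower (median 2.79). Bpifa1, a secreted antimicrobial protein of the upper airway, had 11.83, 11.68 and 10.78 in NL and 4.05, 2.49 and 2.73 in NMG, a difference of 8.34 ± 0.44 (adjusted p = 7.85e-06, limma) against low signal. Scgb3a2, a secretoglobin of club cells, differed by 8.11 and Scgb3a1 by 6.44. Sec14l3, a lipid-binding protein outside the lists, differed by 7.39. Scgb1a1 differed by 7.01 ± 1.74 (adjusted p = 0.017), and by 9.11 without NMG 1 (adjusted p = 0.0007). The call was lost when any 1 NL array was left out, with adjusted p from 0.0528 to 0.054 and differences from 6.99 to 7.03. Retnla, a secreted resistin-like protein, was not called, at 9.28, 8.50 and 8.39 in NL and 8.43, 9.87 and 11.10 in NMG, but was called lower in NL without NMG 1 (-1.76, adjusted p = 0.0194).

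Motile cilia genes were called higher in NL in 13 of 17 cases (median 2.27). Foxj1, the regulator of the motile cilium program, had 5.80, 6.22 and 6.63 in NL and 3.84, 3.72 and 3.91 in NMG, a difference of 2.39 (adjusted p = 8.13e-05, limma). Dynlrb2, a dynein light chain, differed by 5.90 and Tppp3, a tubulin-binding protein, by 3.55. Rsph4a, a radial spoke protein, had 6.07, 6.16 and 6.25 in NL and 2.80, 2.87 and 2.68 in NMG, where its signal was low. The NMG values of this list showed no excess in NMG 1, which was highest in 5 of the 17 genes.

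Upstream sequences are shown for 3 of the leading lung genes, 2 surfactant genes and a mesenchymal regulator, since short motifs of lung and general transcription factors can be read in them. They are the 250 bases before the transcription start, from RefSeq on GRCm38.p6, at chr14:41131538-41131787 on the plus strand (Sftpa1), chr6:72304360-72304609 on the plus strand (Sftpb) and chr10:22820144-22820393 on the minus strand (Tcf21). Capitals mark TATAAA, which is searched on the gene's own strand and named here the TATA box, and, on both strands, CTCAAG (NKX2-1 core), TGTTTAC (forkhead), TTCNNNGAA (STAT), TTGCNNAA (C/EBP) and AGGTCA (nuclear receptors).
Sftpa1: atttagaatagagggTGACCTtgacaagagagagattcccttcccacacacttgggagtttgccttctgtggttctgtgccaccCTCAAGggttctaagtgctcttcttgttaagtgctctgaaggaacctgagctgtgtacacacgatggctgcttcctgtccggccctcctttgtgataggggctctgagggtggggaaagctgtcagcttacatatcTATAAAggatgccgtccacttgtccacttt
Sftpb: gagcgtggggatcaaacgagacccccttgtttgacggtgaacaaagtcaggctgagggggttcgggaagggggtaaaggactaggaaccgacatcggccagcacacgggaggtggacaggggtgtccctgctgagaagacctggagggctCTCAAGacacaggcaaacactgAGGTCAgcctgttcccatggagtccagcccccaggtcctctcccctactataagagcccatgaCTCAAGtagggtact
Tcf21: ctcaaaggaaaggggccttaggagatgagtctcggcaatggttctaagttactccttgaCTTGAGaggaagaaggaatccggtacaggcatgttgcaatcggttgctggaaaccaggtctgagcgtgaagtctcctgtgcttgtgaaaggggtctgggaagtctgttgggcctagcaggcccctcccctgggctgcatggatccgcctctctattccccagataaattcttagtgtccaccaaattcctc
Sftpa1 held a TATA box 30 bases before the start, an NKX2-1 core 166 bases before it and 1 nuclear receptor motif on the opposite strand. Sftpb held NKX2-1 cores 100 and 15 bases and a nuclear receptor motif 78 bases before the start, and Tcf21 held 1 NKX2-1 core on the opposite strand. In the same window of Ager none of the 6 motifs was found. Of all 32851 promoters of this length in the table, 13.3% held the NKX2-1 core, 7.59% the TATA box, 14% the nuclear receptor motif, 3.17% the forkhead motif, 7.02% the STAT motif and 9.56% the C/EBP motif. Of the 45 called genes of the alveolar type 2, alveolar type 1 and club lists 34 had a promoter in the table, and of their 41 promoters 22% held the NKX2-1 core and 17.1% the TATA box. These shares are descriptions, and a match is not evidence of binding.

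Regulators of lung development split. Of 17 members 10 were called higher in NL (median 2.45). Foxa2, a forkhead factor of lung and gut epithelium, had 8.77, 9.41 and 9.47 in NL and 4.56, 4.28 and 4.22 in NMG. Tbx4, the T-box factor of lung mesenchyme and hindlimb, had 8.91, 8.99 and 9.51 in NL and 3.49, 3.05 and 3.48 in NMG, a difference of 5.79 (adjusted p = 1.64e-06, limma). Both regulators lay far above the glands in every lung, as did Foxf1 (4.95), Tbx2 (4.74), the ligand Shh (4.49) and Bmp4 (4.20). Nkx2-1, the defining factor of lung epithelium, did not pass the fold threshold. It had 5.22, 5.08 and 4.82 in NL and 4.41, 4.44 and 4.60 in NMG, a difference of 0.56 (95% interval 0.25 to 0.87, adjusted p = 0.0144) from its only probe set. These NL values lay near the array medians over all probe sets, 5.13 to 5.18 in NL. With so weak a signal even in lung, the small difference says little about the Nkx2-1 transcript. Foxa1, Irx1, Irx2, Irx3, Irx5 and Wnt7b were not called either, although Irx1 was called without NMG 1 (1.11, adjusted p = 0.0372). Foxa1, which acts in luminal mammary cells as well, had 9.44, 9.54 and 9.47 in NL and 9.20, 9.32 and 8.86 in NMG.

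**Figure D3:**
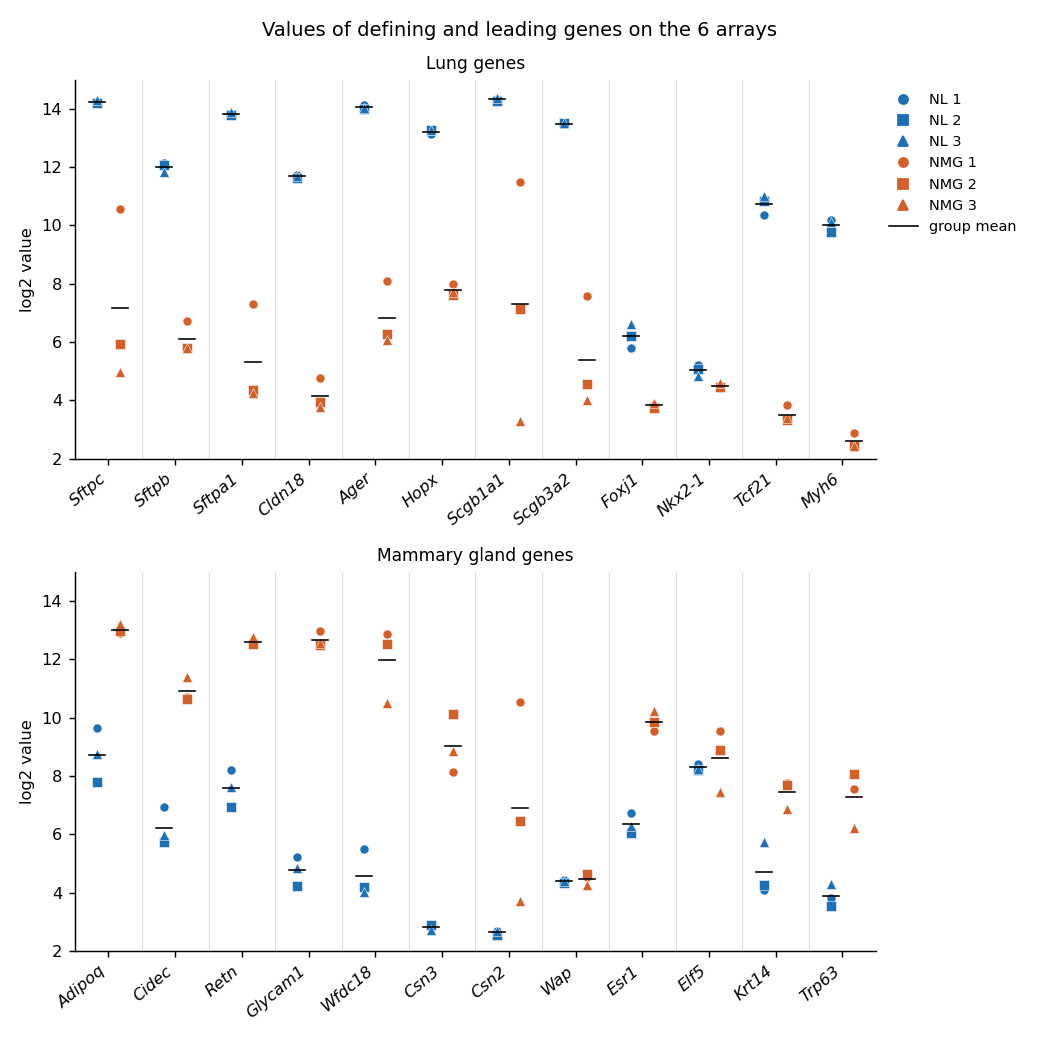
Log2 values on the 3 NL arrays (blue) left of the 3 NMG arrays (orange) for 12 lung genes (upper panel) and 12 mammary gland genes (lower panel), with replicates 1, 2 and 3 as circles, squares and triangles and group means as bars. Among the lung genes Nkx2-1 shows the smallest gap, and in the lower panel Wap and Elf5 overlap between organs while Csn2 spreads from 3.70 to 10.54 in NMG.

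Endothelial genes were higher in NL as well. All 16 pan-endothelial genes were called higher in NL (median 2.40), as were all 11 genes of lung capillaries and endothelial specialization (median 3.48). Cldn5, the endothelial claudin, had 12.54, 12.67 and 12.36 in NL and 9.51, 9.29 and 9.28 in NMG. Cdh5, VE-cadherin, differed by 2.98 and Pecam1, the adhesion molecule CD31, by 2.37. Tmem100, an endothelial protein downstream of BMP signaling, had 10.57, 11.30 and 11.22 in NL and 4.60, 4.70 and 5.39 in NMG. Ace, which makes angiotensin II on capillary surfaces, differed by 4.17 and Car4, the carbonic anhydrase of capillaries, by 3.83. Robo4 differed least among the pan-endothelial genes, at 1.17 (adjusted p = 0.000723, limma).

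Mesenchymal, mesothelial and cardiac genes were mostly higher in NL. Of 12 lung mesenchyme genes 11 were called higher (median 5.03). Tcf21, a bHLH factor of lung lipofibroblasts, had 10.37, 10.84 and 11.01 in NL and 3.83, 3.32 and 3.37 in NMG, a difference of 7.23 ± 0.21 (SE, adjusted p = 1.04e-06, limma). Mfap4, a microfibril protein, differed by 6.03, Npnt, a ligand of integrin alpha 8, by 5.84 and Itga8, that integrin, by 4.77. Fgf10, the branching signal, was not called, at 4.01, 5.05 and 4.21 in NL and 4.70, 4.63 and 5.30 in NMG. Mesothelial genes, which mark the pleural lining, were called higher in 8 of 11 cases, with Upk3b at 4.77 and mesothelin (Msln) at 4.16.

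Heart muscle genes, which mouse pulmonary veins express in their cardiac sleeve, were called higher in 11 of 16 cases (median 3.66). Myh6, the atrial and adult ventricular myosin heavy chain, had 10.17, 9.76 and 10.10 in NL and 2.89, 2.44 and 2.44 in NMG, low signal in every gland. Myl7, the atrial myosin light chain, had 10.71, 10.39 and 10.25 in NL and 4.14, 3.64 and 3.69 in NMG. Both were near equal in the 3 lungs, unlike the skeletal muscle genes of NL 3. Nppa, atrial natriuretic peptide, had 8.18, 6.53 and 4.23 in NL and 3.50, 3.68 and 3.65 in NMG, with adjusted p = 0.0422 (limma). Its difference of 2.70 was not called without NL 1 (1.77), NL 2 (2.59), NMG 1 (2.65), NMG 2 (2.73) or NMG 3 (2.72). Kcnj3, an atrial potassium channel, was not called, with a difference of 0.05.

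Enzymes of drug and toxicant metabolism were called higher in NL in 12 of 14 cases (median 3.48). Cyp2f2, the naphthalene-activating cytochrome of club cells and a member of that list as well, had 13.51, 13.30 and 13.39 in NL and 8.03, 7.64 and 7.07 in NMG. Aox3, an aldehyde oxidase, differed by 5.59, Aldh1a1, which makes retinoic acid, by 5.01 and Cyp2b10 by 4.87. Cyp2e1, an ethanol-oxidizing cytochrome also made in fat, went the other way, with 8.76, 7.57 and 8.92 in NL and 12.26, 12.40 and 12.62 in NMG, a difference of -4.01 (adjusted p = 7.43e-05, limma).

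**Figure D4:**
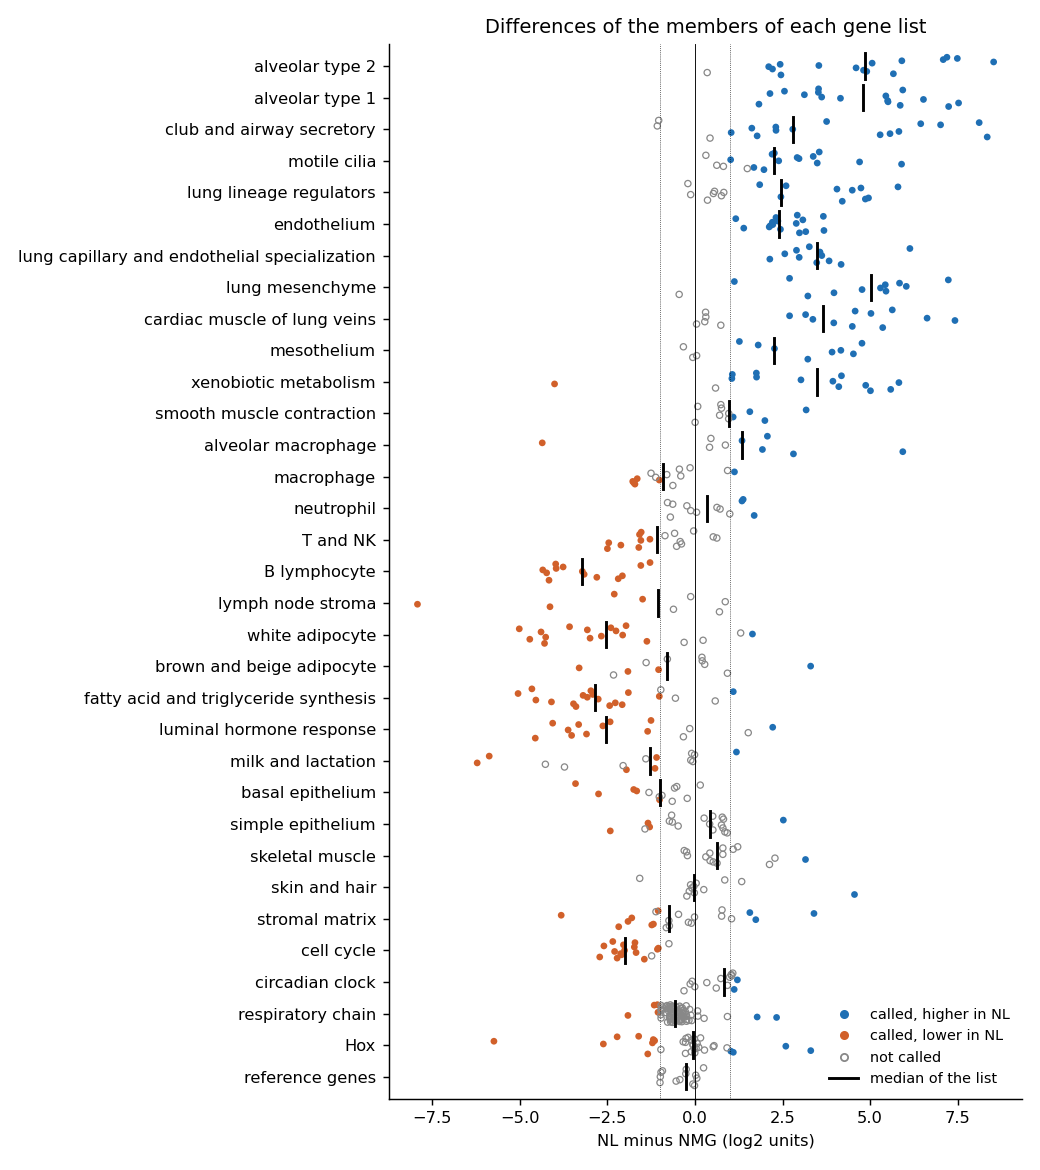
Difference NL minus NMG in log2 units for every tested member of 33 gene lists, one list per row. Filled blue points were called higher in NL, filled orange points lower in NL, open points were not called, and black bars are list medians. Lung, endothelial and mesenchymal lists lie to the right and B lymphocyte, adipocyte, fatty acid synthesis and luminal lists to the left, while Marco and Cyp2e1 lie far left of their own lists.

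Fat genes were higher in NMG. Of 18 white adipocyte genes 14 were called lower in NL and 1 higher (median -2.54), against 7.32% and 8.79% of all genes. Adipoq, the hormone adiponectin, had 9.64, 7.79 and 8.76 in NL and 12.89, 12.98 and 13.20 in NMG, a difference of -4.29 ± 0.41 (SE, adjusted p = 0.000142, limma). Retn, resistin, had 8.22, 6.95 and 7.62 in NL and 12.54, 12.53 and 12.77 in NMG. In both genes NL 1 was the highest lung, as it was in 56.7% of all genes, and the glands varied little. Lep, leptin, differed by -4.26 and Cidec, a lipid droplet protein, by -4.71. Pparg, the master regulator of fat cells, differed by -3.07. Lpl, the lipase that frees fatty acids from lipoproteins, had 11.52, 11.28 and 11.49 in NL and 13.33, 13.40 and 13.75 in NMG, a difference of -2.06. Cd36, a fatty acid carrier of endothelium, macrophages and fat, was not called (0.23). Mest, an imprinted gene of growing fat, was called higher in NL, at 7.66, 7.73 and 7.03 in NL and 6.41, 5.78 and 5.31 in NMG.

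Fatty acid and triglyceride synthesis genes were lower in NL too, with 16 of 20 genes called lower in NL and 1 higher (median -2.84). Pck1, which supplies glycerol phosphate in fat, had 5.05, 3.94 and 5.39 in NL and 9.68, 9.21 and 10.64 in NMG, and 2 of the 3 probe sets for it were lower in NL. Thrsp, a lipogenic nuclear protein, differed by -4.65, the elongase Elovl6 by -4.54, Dgat2, which makes triglyceride, by -4.10 and Fasn, fatty acid synthase, by -2.76. Scd2, a desaturase, was the member called higher in NL, with 11.96, 11.84 and 12.05 in NL and 10.88, 10.80 and 10.89 in NMG, while its paralog Scd1 differed by -1.90. Brown and beige fat genes gave 3 of 11 lower in NL and 1 higher, against 7.32% and 8.79% of all genes. Of these 4 calls 1 was left without NL 2, 1 without NL 3 and 0 in a test without moderation. Elovl3, a cold-induced elongase, differed by -3.30 and was highest in NMG 3. Cidea, a droplet protein of thermogenic fat, was not called (adjusted p = 0.0763, limma) but was called without NL 1, at -3.17 (adjusted p = 0.0217). Fabp3, the heart and muscle fatty acid carrier called higher in NL, had 8.75, 8.57 and 8.84 in NL and 4.51, 4.01 and 7.72 in NMG. Its call was lost without NL 1, NL 2, NL 3, NMG 1 or NMG 2, and 1 of the 2 probe sets for it was higher in NL.

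Hormone-responsive luminal genes were mostly lower in NL, with 10 of 14 called lower in NL and 1 higher (median -2.53). Esr1, estrogen receptor alpha, had 6.72, 6.03 and 6.28 in NL and 9.54, 9.85 and 10.22 in NMG, a difference of -3.52 ± 0.23 (SE, adjusted p = 1.99e-05, limma). Pgr, the progesterone receptor, had 5.08, 4.72 and 5.17 in NL and 8.46, 8.13 and 9.25 in NMG. Cited1, a coactivator of estrogen receptor, had 3.24, 3.01 and 2.93 in NL and 8.58, 8.86 and 5.42 in NMG, where NMG 3 was the lowest gland, and its adjusted p was 0.00382 with limma and 0.0563 in a test without moderation. Gata3, the luminal GATA factor, differed by -3.10 and Tfap2c by -4.06. Elf5, the factor of alveolar progenitors, did not separate the organs, with 8.43, 8.20 and 8.26 in NL and 9.54, 8.88 and 7.46 in NMG (-0.33, 95% interval -1.41 to 0.75). Tbx3, a factor of both mammary and lung development, was called higher in NL, by 2.22. Basal genes were called lower in NL in 5 of 13 cases, against 7.32% of all genes. Trp63, the p63 factor, had 3.80, 3.53 and 4.29 in NL and 7.56, 8.08 and 6.21 in NMG. Krt14 had 4.10, 4.25 and 5.72 in NL and 7.77, 7.69 and 6.86 in NMG. For Trp63, 3 of 4 probe sets were lower in NL. Markers of simple epithelium, which both organs share, were called higher in 1 and lower in 3 of 19 cases, against 8.79% and 7.32% of all genes. Cldn4 (-2.42), Krt18 (-1.34) and Epcam (-1.29) were the 3 lower in NL, and Ocln (2.52) the 1 higher.

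Some milk genes varied widely between the glands. Of 14 members 5 were called lower in NL and 1 higher, against 7.32% and 8.79% of all genes. Csn3, kappa casein, had 2.87, 2.89 and 2.71 in NL and 8.14, 10.11 and 8.87 in NMG, a difference of -6.21 (adjusted p = 3.03e-05, limma). Muc15, a milk fat globule mucin, had 3.38, 3.18 and 3.40 in NL and 10.39, 9.80 and 7.39 in NMG. Both were high in every gland. Csn2, beta casein, had 2.68, 2.56 and 2.67 in NL and 10.54, 6.47 and 3.70 in NMG, and was not called (-4.27 ± 1.46, SE, adjusted p = 0.0575). It was called without NMG 3 (-5.87, adjusted p = 0.00339) and without NMG 1 (-2.45, adjusted p = 0.0419). Csn1s1 had 3.26, 3.26 and 3.32 in NL and 10.61, 7.12 and 3.27 in NMG, and was called only without NMG 3 among the arrays left out. Csn2 and Csn1s1 were highest in NMG 1 and lowest in NMG 3, as were Sftpc and Scgb1a1. Wap, whey acidic protein of late pregnancy and lactation, overlapped between organs, at 4.42, 4.34 and 4.38 in NL and 4.52, 4.64 and 4.27 in NMG. Wfdc18, a whey-type protein outside the lists, had 5.48, 4.19 and 4.03 in NL and 12.87, 12.52 and 10.50 in NMG, a difference of -7.40.

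Upstream sequences of 3 genes higher in NMG are shown for comparison with the lung genes, one each of lymph node or secretory epithelium, milk-type secretion and fat. They are the 250 bases before the start, from RefSeq on GRCm38.p6, at chr15:103565082-103565331 on the minus strand (Glycam1), chr11:83708754-83709003 on the plus strand (Wfdc18) and chr16:23146286-23146535 on the plus strand (Adipoq), with the same 6 motifs in capitals.
Glycam1: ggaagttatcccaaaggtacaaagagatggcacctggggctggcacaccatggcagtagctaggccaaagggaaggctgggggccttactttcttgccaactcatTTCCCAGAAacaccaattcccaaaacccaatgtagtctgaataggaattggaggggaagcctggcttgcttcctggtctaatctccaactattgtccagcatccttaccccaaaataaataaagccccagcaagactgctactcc
Wfdc18: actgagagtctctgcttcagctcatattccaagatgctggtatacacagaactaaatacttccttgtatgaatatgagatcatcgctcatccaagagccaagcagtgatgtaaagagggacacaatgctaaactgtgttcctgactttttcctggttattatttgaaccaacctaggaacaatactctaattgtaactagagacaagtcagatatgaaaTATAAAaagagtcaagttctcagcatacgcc
Adipoq: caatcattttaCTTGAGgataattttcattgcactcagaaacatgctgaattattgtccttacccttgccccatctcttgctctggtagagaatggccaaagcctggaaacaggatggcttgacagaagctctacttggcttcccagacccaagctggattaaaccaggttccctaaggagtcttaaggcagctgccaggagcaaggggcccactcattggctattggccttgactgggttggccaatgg
Glycam1 held a STAT motif 145 bases before the start. Wfdc18 held a TATA box 31 bases before it, and Adipoq held 1 NKX2-1 core on the opposite strand. In Retn none was found. Of 29 promoters of the called adipocyte and fat synthesis genes 17.2% held the NKX2-1 core and 24.1% the nuclear receptor motif, and the nuclear receptor motif stood in 22% of the lung set. Of 14 promoters of the called luminal and milk genes 7.14% held the NKX2-1 core and 14.3% the nuclear receptor motif. For the NKX2-1 core the sets thus lay on both sides of the 13.3% of all promoters. For the nuclear receptor motif they lay above the 14% of all promoters, the luminal and milk set only just. These shares were not tested.

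Lymphoid genes were lower in NL. All 13 B lymphocyte genes were called lower in NL (median -3.21). Fcer2a, the B cell receptor CD23, had 5.66 to 5.73 in NL and 9.96 to 10.12 in NMG, a difference of -4.34 (adjusted p = 6.85e-07, limma). Cr2, the complement receptor CD21 of B cells and follicular dendritic cells, differed by -4.23 and Ms4a1, CD20, by -3.76. The summed level of the list ran from 1250 to 1490 in NL and from 15000 to 16700 in NMG. Of 8 genes of lymph node stroma 4 were called lower in NL, against 7.32% of all genes. Glycam1, a ligand of L-selectin on high endothelial venules that mammary epithelium also secretes, had 5.23, 4.23 and 4.83 in NL and 12.97, 12.50 and 12.57 in NMG. Its difference of -7.92 ± 0.26 (SE, adjusted p = 1.47e-06) was the largest negative one of all genes tested. Cxcl13, the B cell follicle chemokine, had 7.83, 7.36 and 7.71 in NL and 12.24, 11.69 and 11.37 in NMG, and Madcam1 differed by -1.49. Chst4, a sulfotransferase of these venules, was at low signal in NL and not called. Of 16 T and NK genes 8 were called lower in NL (median -1.07), against 7.32% of all genes, among them Ccl5 at -2.50 and Cd3g at -2.46. Gzma, a granzyme of NK cells, was not called, at 10.61, 10.34 and 9.82 in NL and 9.33, 10.02 and 9.53 in NMG.

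Macrophage genes differed by subset. Of 14 general macrophage genes 1 was called higher in NL and 5 lower, against 8.79% and 7.32% of all genes. Lyz2, lysozyme, which type 2 cells make too, had 13.89, 13.91 and 13.89 in NL and 12.78, 12.73 and 12.80 in NMG. The complement genes C1qa, C1qb and C1qc differed by -1.71, -1.75 and -1.78, and Csf1r, the receptor that macrophages depend on, by -0.40 without a call. Of 9 alveolar macrophage genes 5 were called higher in NL and 1 lower, against the same shares. Chil3, a chitinase-like protein of alveolar macrophages, had 8.57, 10.05 and 9.69 in NL and 3.94, 2.97 and 3.60 in NMG, and Siglecf, their lectin, had 4.65, 6.64 and 5.16 in NL and 3.25, 3.23 and 3.77 in NMG. Marco, a scavenger receptor listed with them and also known from macrophages of lymphoid sinuses, had 4.88, 4.48 and 4.56 in NL and 9.43, 8.37 and 9.19 in NMG, a difference of -4.36 (adjusted p = 1.62e-05, limma). Cd209b, a lectin of spleen and lymph node macrophages outside the lists, differed by -5.35. Other leading genes lower in NL were Ptn, the growth factor pleiotrophin (-6.15), Ubd, a ubiquitin-like protein of immune cells (-5.52), Orm1, an acute-phase glycoprotein (-5.51), and Cxcl9, a chemokine for T cells (-4.82). Neutrophil genes were called higher in NL in 3 of 12 cases and lower in 0, against 8.79% and 7.32% of all genes. Their median difference was 0.34, with a range from -0.78 (Ngp, not called) to 1.69 (Clec4d). S100a9 differed by 1.38 and S100a8 by 1.34, the last not called without NL 2 (1.14).

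Of 17 cell cycle genes 15 were called lower in NL and 0 higher (median -2.01), against 7.32% and 8.79% of all genes. Mki67, the proliferation antigen, had 7.28, 6.78 and 6.27 in NL and 9.37, 10.34 and 8.40 in NMG, a difference of -2.60 ± 0.47 (SE, adjusted p = 0.00408, limma). Birc5, survivin, had 5.11, 4.85 and 4.25 in NL and 7.36, 8.67 and 6.33 in NMG. NMG 2 was the highest gland in both, and no lung reached a gland. The number of calls was 8 of 17 without NL 2, 6 without NL 3 and 0 in a test without moderation. Of 21 fibroblast matrix genes 7 were called lower in NL and 3 higher, against the same shares of all genes. Lum, lumican, had 7.24, 7.13 and 6.91 in NL and 10.47, 11.04 and 11.21 in NMG. Ogn, osteoglycin, had 11.73, 12.00 and 12.06 in NL and 7.93, 7.87 and 9.80 in NMG, and Eln, elastin, differed by 1.74.

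Hox genes, which give cells a position along the body axis, are numbered by paralog from front to back. Of 33 genes 4 were called higher in NL and 8 lower, against 8.79% and 7.32% of all genes. Hoxa5, needed for lung morphogenesis, had 9.39, 9.34 and 9.30 in NL and 6.01, 5.71 and 6.38 in NMG (3.31, adjusted p = 7.29e-06, limma), and Hoxb5 differed by 2.59. Hoxa2 (1.10, and 0.97 without NL 1) and Hoxa4 (1.02, 0.96 without NL 2 and 1.00 without NMG 2) lay at the fold threshold. Hoxc8 had 2.81, 2.56 and 2.77 in NL, at low signal, and 8.47, 8.12 and 8.76 in NMG, a difference of -5.74 ± 0.17 (SE, adjusted p = 1.19e-06). Hoxc10 (-2.61), Hoxd8 (-2.22), Hoxd9 (-1.61), Hoxa10 (-1.35), Hoxd10 (-1.19) and Hoxc9 (-1.15) were also lower in NL. The 4 genes higher in NL had paralog numbers up to 5 and belonged to the Hoxa and Hoxb clusters, and 7 of the 8 lower ones had numbers from 8 to 10. Hoxc4 (-1.21) was the exception. Among 80 other developmental factors, of families such as T-box, GATA, Irx and Lhx, 8 were called higher and 7 lower (median 0.04). These counts lay near the 8.79% and 7.32% of all genes. Gata2, a factor of endothelium and blood progenitors, differed by 3.44, and Tbx15, a factor of subcutaneous fat and body wall, by -1.91.

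**Figure D5:**
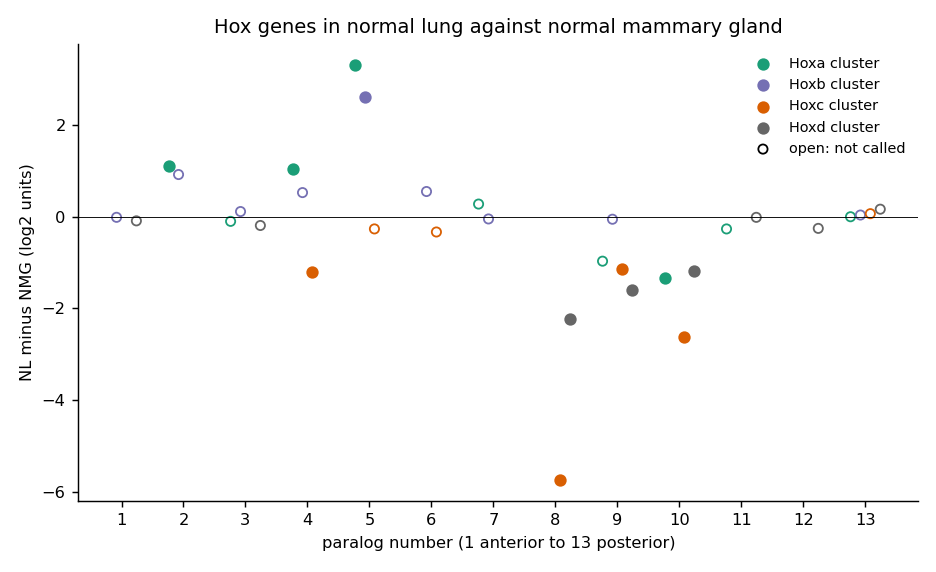
Difference NL minus NMG in log2 units (vertical axis) of 33 Hox genes by paralog number (horizontal axis), colored by cluster, with filled points called and open points not called. Hoxa5 and Hoxb5 lie highest and Hoxc8 lowest, and all called genes with numbers from 8 to 10 lie below 0.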

How the data were processed

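RNA of whole frozen tissue was read on Affymetrix mouse arrays by the authors, who made the deposited log2 values from all 28 arrays with RMA in Partek. RMA corrects background, normalizes arrays by quantiles and summarizes probe sets. Quantile normalization forces arrays of different organs to one distribution, so differences are relative to the whole profile. The values were not normalized again. Array medians over all probe sets lay from 5.11 to 5.18 on the 6 arrays. Signal over background is not given per probe, so Y-linked genes served as the mark of low signal.

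Of 45101 probe sets 34958 listed 1 gene symbol, 932 several and 9211 none. They stood for 18194 genes. Where a gene had more than 1, as 9012 genes did, its brightest probe set on average over the 26 tissue arrays was taken. The contrast of NL and NMG was fitted to log2 values of the 6 arrays by limma 3.58.1 (lmFit, eBayes; R 4.3.3), two-sided and without covariates, and adjustment by Benjamini-Hochberg covered all 18194 genes. Differences are NL minus NMG. The fit was tested on simulated data. Figures were drawn with Python 3.11.15 and matplotlib 3.10.9.

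The members, gene lists and tests were chosen with earlier results of these data known. Lists are described by counts and medians, with no test of the list. The text draws on the 15 largest called differences in each direction without overlap, up to 5 called and 2 least different members per list, and defining markers. Further list members, and the genes on which single arrays stood apart, were named after their values were seen. Upstream sequences are from RefSeq. Alternatives were other probe set choices, a filter on low values, other scaling, all 26 tissue arrays, a replicate block, an intensity trend, the study's kind of unmoderated test, other thresholds and leaving out each array. Replicate numbers do not mark a shared animal in the labels. Some genes are not reported here.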

Additional observations from a re-analysis of the deposited data

How the results depend on the processing

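Against 2932 genes called, 1600 higher and 1332 lower in NL, a fit of only the genes above the median mean called 1857 of 9097 (1060 higher and 797 lower), the adjusted p alone 6267 (3183 higher and 3084 lower) and a 4-fold threshold 1067 (640 higher and 427 lower), which follows from fewer genes tested or another threshold. Leaving out single arrays gave 2740 to 3037 calls, 1551 to 1647 higher and 1175 to 1390 lower in NL. A test without moderation gave 2500, and the mean of all probe sets of a gene 2463, and all other alternatives lay between 2738 and 2968. With a replicate block 2955 genes were called, 2924 of them among the 2932. The deviations of same-numbered lungs and glands correlated with r = -0.08, 0.08 and 0.03 over all genes, which cannot show or exclude pairing. Replicate 3 of both organs stood together in clock genes, and whether same-numbered arrays share a mouse is not known. The block moved the clock list from 2 to 4 calls and added a call for Csn2 (adjusted p = 0.0378). No called gene of the text changed direction under any alternative, and 18 of those named lost their call without moderation, among them Sftpc (adjusted p = 0.0564), Scgb1a1, Mki67 and Cited1. The test without moderation also left fewer calls in some lists, with 2 in basal epithelium, 5 in T and NK, 3 in milk and 1 in neutrophil genes. With all 26 tissue arrays in the fit Ms4a1 (adjusted p = 0.0514), Epcam, Aqp5, S100a8 and S100a9 lost their call, and Csn2 (adjusted p = 0.00317) and Csn1s1 gained one. With the mean of all probe sets Epcam, Hoxa10 and Hoxa4 were under 2-fold. Of 13 reference genes 0 were called, and 2, Gapdh and Pgk1, were called lower in NL when arrays were centred on their median or normalized again. The mean of all probe sets gave 1, and leaving out an array gave 3 without NL 1 or NMG 1 and 1 without NL 2, NL 3, NMG 2 or NMG 3. The causes were not tested. Values near the 3.37 of Y-linked genes carry little signal, which limits the size of differences against them.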

Other observations

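Of 14 genes of the circadian clock, with a median difference of 0.83, 2 were called, against 16.1% of all genes, both higher in NL, Nr1d1, a repressor of the clock, and Ciart, and 0 were called without NL 3 or without NMG 1, 1 without NL 1 or NMG 2, 3 without NL 2 and 5 without NMG 3. Dbp, a clock output factor that peaks late in the day, had 7.71, 7.96 and 10.80 in NL and 8.26, 8.25 and 10.37 in NMG. Per2, a core repressor, had 5.68, 6.48 and 8.54 in NL and 5.77, 5.02 and 6.77 in NMG, and Per3 had 7.64, 7.56 and 9.13 in NL and 6.72, 6.29 and 8.21 in NMG. Arntl, the activator BMAL1 of the clock, had 7.55, 7.66 and 4.99 in NL and 7.35, 7.24 and 6.55 in NMG. Replicate 3 of both organs thus stood high in Dbp, Per2 and Per3 and low in Arntl. None of these 4 genes was called, and Per3 was called without NMG 3 (1.61, adjusted p = 0.0313, limma). The labels give no hour of collection, and no test of this pattern was made.

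Genes of the respiratory chain, which carries out oxidative phosphorylation in mitochondria, had a median difference of -0.56 over 80 members. Of these 4 were called lower and 2 higher in NL, against 16.1% of all genes called, and 52 passed the adjusted p alone, against 34.4% of all genes. The 13 reference genes lay lower in NL too, with a median of -0.26, and 6 of them passed the adjusted p alone. Their array means ran from 10.55 to 10.60 in NL and from 10.92 to 11.01 in NMG. Whether the shift is particular to the respiratory chain was not tested. Cox6a2, the heart and muscle form of a cytochrome oxidase subunit, was called higher, with 8.96, 8.32 and 8.70 in NL and 6.44, 6.23 and 6.33 in NMG. Cox8b, a form of muscle and brown fat, was called lower, with 9.41, 7.63 and 7.95 in NL and 9.78, 9.78 and 11.17 in NMG, and its call was lost without NL 2, NL 3 or NMG 3. The count of 6 calls became 12 after quantile normalization once more, 12 without NL 1, 11 without NMG 1 or NMG 2 and 3 without NMG 3.

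The counts that follow stand against 8.79% of all genes called higher in NL and 7.32% called lower. Immediate early genes, which respond within minutes to handling and stress, were called higher in NL in 4 of 17 cases and lower in 1. Jun had 10.66, 10.74 and 10.43 in NL and 8.40, 8.49 and 8.54 in NMG, and Egr1 had 9.02, 8.89 and 8.95 in NL and 9.75, 10.02 and 10.36 in NMG. Without NMG 3 the difference of Egr1 was -0.93, under the fold threshold. Fos was not called, with a difference of 0.38. Interferon genes were called higher in 2 and lower in 3 of 15 cases, with a median difference of -0.12. Ifit3 had 8.38, 8.07 and 8.49 in NL and 6.59, 6.39 and 7.36 in NMG, while Mx1 had 4.95, 4.82 and 4.53 in NL and 6.90, 6.94 and 7.16 in NMG. Of 5 red blood cell genes 3 were called higher in NL, among them Alas2, the heme synthesis enzyme of red cells, with 9.38, 9.96 and 8.74 in NL and 6.19, 5.97 and 6.22 in NMG. The globin gene Hba-a1 was at low signal in both organs, with means of 3.38 in NL and 3.35 in NMG, and was not called. Smooth muscle genes gave 4 of 11 higher in NL, and Acta2, smooth muscle actin, did not separate the organs, with 11.44, 10.92 and 11.05 in NL and 11.45, 11.16 and 10.79 in NMG. Of 8 nerve genes 1 was called higher and 2 lower, and of 12 skin and hair genes 1 was higher, Dmkn, a secreted skin protein, with a difference of 4.55.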
